A study of Mus musculus with 12 samples.

Results

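The genes of the liver's vessel lining were followed in bulk RNA-seq of liver tissue from 6 WT and 6 LKO mice. The set was fixed by name and holds 10 of the 54232 genes in the count table. Of these, 6 are typical of the sinusoidal endothelium (*Stab1*, *Stab2*, *Lyve1*, *Clec4g*, *Oit3* and *Dnase1l3*) and 4 are used as markers of vessels in general (*Pecam1*, *Cdh5*, *Kdr* and *Vwf*). All mice were male C57Bl/6J littermates of 10 weeks on chow that had been fasted for 4 h, with 1 library per mouse. WT and LKO mice alike carried the floxed *Marchf6* allele on both chromosomes (*Marchf6* fl/fl), and only LKO mice carried AlbuminCre, so the controls had loxP sites but no Cre. The albumin promoter drives Cre in hepatocytes, and the endothelial cells were therefore not the target of the deletion. Whole tissue does not show whether the reads of a gene came from sinusoids or from larger vessels, and in such data fewer cells of a type and less RNA per cell cannot be told apart.

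Liver sinusoidal endothelial cells line the capillaries between the plates of hepatocytes. Their wall is fenestrated and has no organized basement membrane, which lets plasma reach the hepatocytes, and they clear hyaluronan, modified lipoproteins and immune complexes from blood through scavenger and lectin receptors. They also send Wnt, R-spondin and BMP signals to hepatocytes. In chronic liver injury, including fatty liver, they can lose the fenestrae and scavenger receptors and take on features of continuous endothelium, a change known as capillarization. *Pecam1*, *Cdh5* and *Kdr* are found in sinusoids as well as in other vessels, so the second group is not exclusive to arteries, veins and portal vessels, whereas *Vwf* in the liver is mainly a product of larger vessels.

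Total counts ran from 14860414 to 22111926 reads per liver, and the values below are CPM after TMM normalization. No 2 libraries held identical counts. The share of mitochondrial reads was 5.84% to 6.15% in WT and 6.19% to 6.73% in LKO livers, and the library numbers of the WT livers precede those of the LKO livers, so that library order and genotype cannot be told apart. *Marchf6*, listed under its older symbol *March6*, had 226 to 247 CPM in WT and 204 to 249 CPM in LKO livers (log2 fold change -0.09, SE 0.060, adjusted p = 0.585 by edgeR's quasi-likelihood test). A count over the whole gene does not test the loss of a single exon, and the genotypes are those of the labels.

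The sequence upstream of the gene is shown for the 4 members that could be matched in the RefSeq promoter table of GRCm38.p6. Factors of the ETS and GATA families are known regulators of endothelial genes, and some forms of their motifs can be looked for there. Capitals mark the letters GGAAG, a form of the ETS motif, on the gene's strand or, read as its reverse complement, on the other. Where matches touch, the capitals run on. The core GGAA followed by another letter was neither counted nor marked. For the other family a single form of the motif, GATAA, was searched in the same way on both strands. Other forms, such as GATAG, were neither searched nor marked. GATAA had 0 matches, so no overlap of the letters searched could arise. The window searched was the 250 bases before the RefSeq start site. GENCODE starts *Stab2* and *Kdr* earlier, so that 83 and 3 bases of their windows lie inside the annotated gene, and these are left out of the lines. Each line runs 5′ to 3′ on the gene's own strand, which is minus for all 4. They cover chr14:31168642-31168891 for *Stab1*, chr10:87008026-87008192 for *Stab2*, chr8:3720652-3720901 for *Clec4g* and chr5:75978459-75978705 for *Kdr*.
Stab1: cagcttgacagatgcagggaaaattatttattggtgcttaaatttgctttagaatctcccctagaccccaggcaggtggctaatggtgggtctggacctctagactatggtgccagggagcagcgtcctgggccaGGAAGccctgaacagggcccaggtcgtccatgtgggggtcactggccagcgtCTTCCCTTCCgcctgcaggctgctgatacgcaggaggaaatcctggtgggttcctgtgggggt
Stab2: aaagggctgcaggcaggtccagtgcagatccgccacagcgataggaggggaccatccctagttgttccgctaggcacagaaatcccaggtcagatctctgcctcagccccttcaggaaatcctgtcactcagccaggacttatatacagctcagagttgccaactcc
Clec4g: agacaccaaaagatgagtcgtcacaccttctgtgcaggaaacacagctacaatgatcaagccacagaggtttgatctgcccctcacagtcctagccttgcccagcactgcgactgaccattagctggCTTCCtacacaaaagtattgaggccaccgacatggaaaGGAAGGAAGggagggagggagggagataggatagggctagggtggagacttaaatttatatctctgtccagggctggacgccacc
Kdr: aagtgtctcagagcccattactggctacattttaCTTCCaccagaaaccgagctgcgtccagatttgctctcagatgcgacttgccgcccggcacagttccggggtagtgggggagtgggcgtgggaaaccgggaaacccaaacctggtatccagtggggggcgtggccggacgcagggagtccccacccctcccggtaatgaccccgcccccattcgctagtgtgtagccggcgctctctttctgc
*Stab1* and *Clec4g* held 3 GGAAG matches each, and *Stab2* and *Kdr* held 1 each, that of *Stab2* in the 83 bases that GENCODE places inside the gene. Of all 32851 promoters of 250 bases, 64.1% held GGAAG, so its presence does not set these 4 apart. GATAA was found in 0 of the 4 and in 22.6% of all promoters. The GC content was 57.2% for *Stab1*, 53.2% for *Stab2*, 52% for *Clec4g* and 61.6% for *Kdr*, beside a median of 52.4% over all promoters. *Lyve1*, *Oit3*, *Dnase1l3*, *Pecam1*, *Cdh5* and *Vwf* are named only.

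All 10 endothelial genes were expressed in every liver and passed the filter on low counts, and none of the 10 passed the threshold between genotypes (an adjusted p under 0.05 in edgeR's quasi-likelihood test, after the Benjamini-Hochberg method was applied to all 17509 genes tested). Over all genes tested, 75 passed, which is 0.428%. The 10 differences had 0.07 as their median log2 fold change, beside 0.00016 over all genes, and 7 were above 0, beside 50.0% of all genes. For 8 of the 10 genes the difference was within 0.15 on the log2 scale, and the exceptions were *Lyve1* at 0.77 and *Vwf* at -0.25. *Lyve1* was also the only member with an unadjusted p under 0.05, which 11.7% of all genes had. The WT and LKO livers overlapped for all 10 genes, and 1.30% of all genes had groups that did not overlap.

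**Figure D1:**
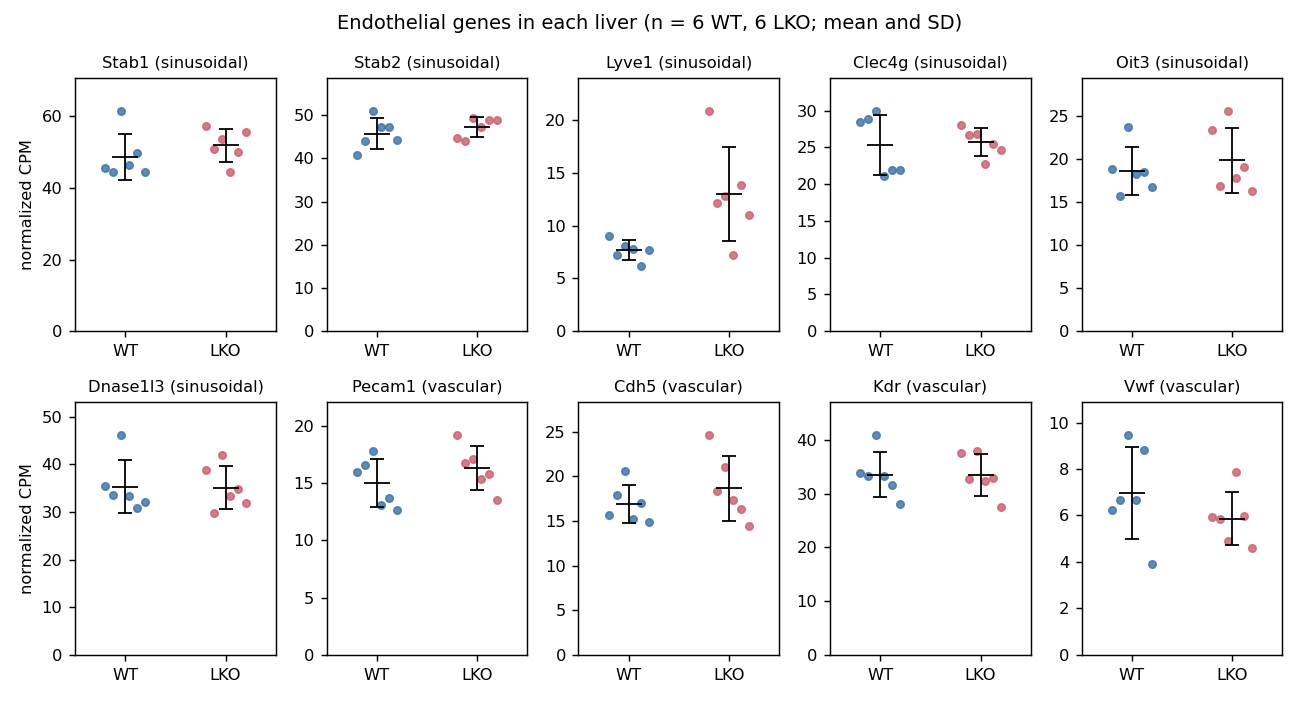
Normalized CPM (vertical axes, each from 0) of the 10 endothelial genes in each of 6 WT and 6 LKO livers; points are livers and bars give the mean and SD. The groups overlap in every panel, and for *Lyve1* 5 of the 6 LKO livers lie above the highest WT liver.

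The hyaluronan and scavenger receptors are the genes by which sinusoidal endothelium is usually recognised. *Stab1* (stabilin-1, a scavenger receptor for modified lipoproteins and matrix fragments; ENSMUSG00000042286, chr14:31139013-31168641) had 44.6, 46 and 61.4 CPM as the lowest, median and highest WT value and 44.5, 52.3 and 57.4 CPM in LKO livers. Nearly the whole LKO range lay inside the WT range, and 5 of 6 LKO livers were above the WT mean. Its means were 48.7 ± 6.51 (SD, n = 6) and 52 ± 4.61 CPM (SD, n = 6), a log2 fold change of 0.09 (SE 0.087, 95% interval -0.09 to 0.28, adjusted p = 0.728 by edgeR).

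*Stab2* (stabilin-2, the main hyaluronan clearance receptor of the liver; ENSMUSG00000035459, chr10:86841198-87008025) spanned 40.7 to 50.9 CPM in WT livers with a median of 45.7, and 44.1 to 49.3 CPM in LKO livers with a median of 48. The LKO values lay wholly inside the WT range. The mean was 45.7 ± 3.53 CPM in WT and 47.2 ± 2.31 CPM in LKO livers (SD, n = 6 each), and the log2 fold change of 0.04 had the smallest error of the 10 (SE 0.063, 95% interval -0.09 to 0.18, adjusted p = 0.839 by edgeR).

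*Lyve1* encodes a hyaluronan receptor that is shared by sinusoidal and lymphatic endothelium and by some tissue macrophages (ENSMUSG00000030787, chr7:110850607-110863239). WT replicates 1 to 6 had 9.05, 7.18, 8.06, 7.74, 6.18 and 7.72 CPM. LKO replicates 1 to 6 had 20.8, 12.1, 12.8, 7.23, 13.8 and 11 CPM. Thus 5 of 6 LKO livers exceeded the highest WT liver, LKO replicate 4 lay within the WT range, and LKO replicate 1 stood well above the others. The mean was 7.66 ± 0.952 CPM in WT and 13 ± 4.48 CPM in LKO livers (SD, n = 6 each), a fold change of 1.7 (log2 0.77, SE 0.191, 95% interval 0.36 to 1.18) that did not pass after adjustment (adjusted p = 0.103 by edgeR). The SD was 12.4% of the mean in WT and 34.5% in LKO livers.

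The call for *Lyve1* turned on the test and on 1 liver. It passed with DESeq2 (adjusted p = 0.0127), which called 2.31% of its genes, and with edgeR when LKO replicate 4 was left out (log2 fold change 0.89, adjusted p = 0.0248, with 0.417% of all genes called). Without LKO replicate 1 the log2 fold change was 0.58 (edgeR, adjusted p = 0.13). It was above 0 in each of the 21 alternative settings, and it rested on 115 to 448 reads per liver.

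*Clec4g* (LSECtin, a C-type lectin of the sinusoidal surface; ENSMUSG00000074491, chr8:3707064-3720651) had a lowest, median and highest value of 21.1, 25.2 and 29.9 CPM in WT livers and of 22.7, 26.1 and 28 CPM in LKO livers. The LKO livers again lay inside the WT range. Means of 25.4 ± 4.08 and 25.7 ± 1.88 CPM (SD, n = 6 each) gave a log2 fold change of 0.02 (SE 0.098, 95% interval -0.19 to 0.23, adjusted p = 0.962 by edgeR).

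*Oit3* (a secreted zona pellucida domain protein found in sinusoidal endothelium; ENSMUSG00000009654, chr10:59422958-59441778) had 15.7, 18.4 and 23.7 CPM as the lowest, median and highest WT value and 16.3, 18.4 and 25.5 CPM in LKO livers. The group medians were equal at this rounding and the highest value belonged to an LKO liver. Its mean was 18.6 ± 2.76 CPM in WT and 19.8 ± 3.75 CPM in LKO livers (SD, n = 6 each), with a log2 fold change of 0.09 (SE 0.124, 95% interval -0.17 to 0.36, adjusted p = 0.829 by edgeR).

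*Dnase1l3* (a secreted nuclease that degrades DNA in chromatin and microparticles; ENSMUSG00000025279, chr14:7964533-7994573) had 30.8, 33.5 and 46.1 CPM as the lowest, median and highest WT value and 29.7, 34.1 and 42 CPM in LKO livers. The ranges covered each other almost entirely. The mean was 35.2 ± 5.55 CPM in WT and 35.1 ± 4.57 CPM in LKO livers (SD, n = 6 each), which is a log2 fold change of -0.01 (SE 0.106, 95% interval -0.23 to 0.22, adjusted p = 0.993 by edgeR).

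Among the general vessel genes, *Pecam1* (CD31, an adhesion molecule of endothelial junctions that platelets and leukocytes also carry; ENSMUSG00000020717, chr11:106654217-106750628) had 12.7, 14.8 and 17.8 CPM as the lowest, median and highest WT value and 13.5, 16.3 and 19.2 CPM in LKO livers. The LKO range was shifted up by less than the spread within either group. With means of 15 ± 2.09 and 16.3 ± 1.91 CPM (SD, n = 6 each), the log2 fold change was 0.12 (SE 0.103, 95% interval -0.10 to 0.34, adjusted p = 0.699 by edgeR).

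*Cdh5* (VE-cadherin, the cadherin of endothelial adherens junctions; ENSMUSG00000031871, chr8:104101625-104144511) had 14.9, 16.3 and 20.6 CPM as the lowest, median and highest WT value and 14.4, 17.8 and 24.6 CPM in LKO livers. Both the lowest and the highest of the 12 values belonged to LKO livers. Means of 16.9 ± 2.14 and 18.6 ± 3.64 CPM (SD, n = 6 each) gave a log2 fold change of 0.14 (SE 0.122, 95% interval -0.12 to 0.41, adjusted p = 0.698 by edgeR).

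*Kdr* (VEGFR2, the main signalling receptor for VEGF-A; ENSMUSG00000062960, chr5:75932827-75978458) had 28.1, 33.3 and 40.9 CPM as the lowest, median and highest WT value and 27.5, 32.8 and 38 CPM in LKO livers. Its means were equal at this rounding, 33.5 ± 4.19 CPM in WT and 33.5 ± 3.9 CPM in LKO livers (SD, n = 6 each). The 95% interval of its log2 fold change ran from -0.20 to 0.20 (SE 0.094, adjusted p = 0.999 by edgeR).

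*Vwf* (von Willebrand factor, which tethers platelets to the wall; ENSMUSG00000001930, chr6:125546774-125686679) had 3.93, 6.66 and 9.46 CPM as the lowest, median and highest WT value and 4.59, 5.89 and 7.86 CPM in LKO livers. The LKO livers lay inside the WT range. The mean was 6.95 ± 1.98 CPM in WT and 5.85 ± 1.14 CPM in LKO livers (SD, n = 6 each), which is a log2 fold change of -0.25 (SE 0.186, 95% interval -0.65 to 0.15, adjusted p = 0.646 by edgeR). With 61 to 168 reads per liver it was the member with the fewest reads, and its interval was the second widest of the 10.

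**Figure D2:**
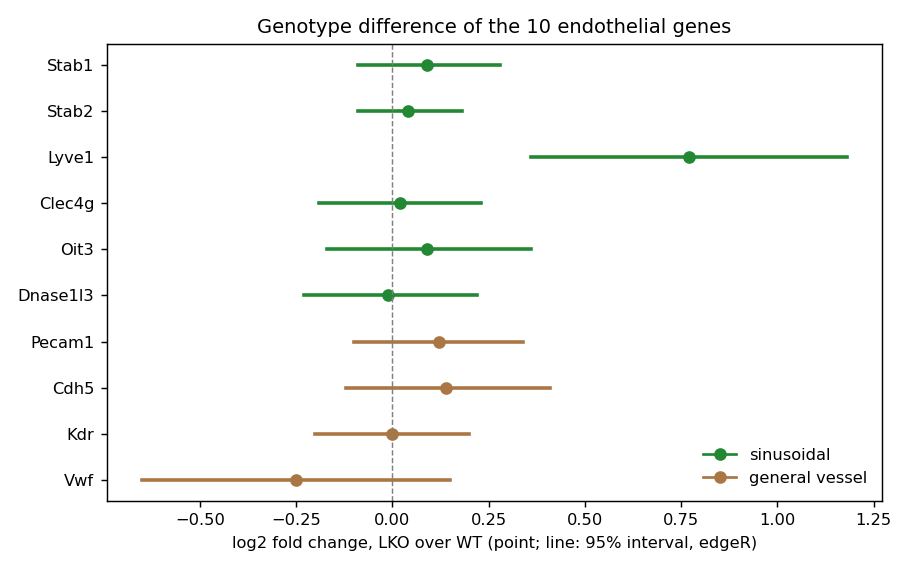
Log2 fold change of LKO over WT livers (horizontal axis) for the 10 endothelial genes, with points for the edgeR estimate and lines for its 95% interval; green marks the sinusoidal genes and brown the general vessel genes. The interval of *Lyve1*, 0.36 to 1.18, lies above 0 and the intervals of the other 9 genes include 0.

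Leaving aside *Lyve1* and *Vwf*, the other 8 genes had log2 fold changes from -0.01 to 0.14, and their 95% intervals reached from -0.23 to 0.41 at the widest. Differences of these sizes can be neither called nor dismissed with 6 livers a group. The SD within a group was 4.89% to 19.5% of the mean for these 8 genes.

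Some members share exon sequence with another annotated gene, and the strand setting of the counting is not given in the sources used here. On the opposite strand, *Nt5dc2* covers 1.09% of the exon bases of *Stab1*, *Gm16268* covers 1.61% of *Stab2* and *Gm16553* covers 5.93% of *Clec4g*. The other 7 members had no exon overlap.

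Levels of different genes were compared per length, as RPKM (normalized CPM per kilobase of merged exons). In WT livers the order from the top was *Clec4g* at 10.3 ± 1.66, *Dnase1l3* at 6.84 ± 1.08, *Oit3* at 6.67 ± 0.99, *Stab2* at 5.22 ± 0.403, *Stab1* at 4.74 ± 0.632, *Cdh5* at 4.01 ± 0.51, *Kdr* at 3.71 ± 0.464, *Lyve1* at 2.62 ± 0.326, *Pecam1* at 2.41 ± 0.336 and *Vwf* at 0.433 ± 0.123 RPKM (mean and SD, n = 6 each). Thus the 5 top places were held by sinusoidal genes. Of neighbours in this order, *Kdr* and *Lyve1* did not overlap, nor did *Pecam1* and *Vwf*, while the ranges of the other neighbours did. *Clec4g* lay above 82.1% of all genes tested and *Vwf* above 26.8%.

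In LKO livers the sinusoidal genes also held the top of the order, with *Clec4g* at 10.5 ± 0.765, *Oit3* at 7.11 ± 1.35, *Dnase1l3* at 6.81 ± 0.888, *Stab2* at 5.39 ± 0.264 and *Stab1* at 5.05 ± 0.448 RPKM (SD, n = 6). *Lyve1* moved from place 8 to place 6, at 4.44 ± 1.53 RPKM, with the largest spread of the 10. *Cdh5* followed at 4.44 ± 0.866, *Kdr* at 3.71 ± 0.432, *Pecam1* at 2.62 ± 0.306 and *Vwf* at 0.364 ± 0.0711 RPKM. Merged exon length is not the length of the transcript in use, so the order across genes is approximate.

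To set sinusoidal genes against general vessel genes within each liver, the mean log2 CPM of the 4 general vessel genes was subtracted from that of the 6 sinusoidal genes. The difference was 0.78, 0.61, 0.66, 0.76, 0.58 and 0.98 in WT replicates 1 to 6. It was 0.88, 0.78, 0.97, 0.59, 0.94 and 1.10 in LKO replicates 1 to 6. The groups overlapped over most of their ranges, with 5 of 6 LKO livers above the WT mean. The mean was 0.73 ± 0.15 in WT and 0.88 ± 0.18 in LKO livers (SD, n = 6 each), so that LKO livers were higher by 0.15, which is no more than the SD within a group.

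The difference of 0.15 rested on *Lyve1* and *Vwf*. Without *Lyve1* it was 0.04, without *Vwf* it was 0.07, and without both it was -0.03. The setting without *Lyve1* alone and that without both were chosen after seeing the data. In a planned setting without *Stab1*, *Lyve1* and *Dnase1l3* it was 0.04. Computed from summed CPM, in which abundant genes weigh most, it was 0.05. The summed CPM of the 6 sinusoidal genes was 167 to 220 in WT and 173 to 213 in LKO livers, and that of the 4 general vessel genes was 59.7 to 88.8 and 60 to 87.3. The mean log2 CPM of the sinusoidal genes was 4.67 ± 0.14 in WT and 4.83 ± 0.17 in LKO livers, and that of the general vessel genes was 3.94 ± 0.22 and 3.95 ± 0.17 (SD, n = 6 each). The median log2 fold change was 0.07 for the sinusoidal and 0.06 for the general vessel genes, and with single livers left out it ran from 0.02 to 0.13 and from 0.01 to 0.12.

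**Figure D3:**
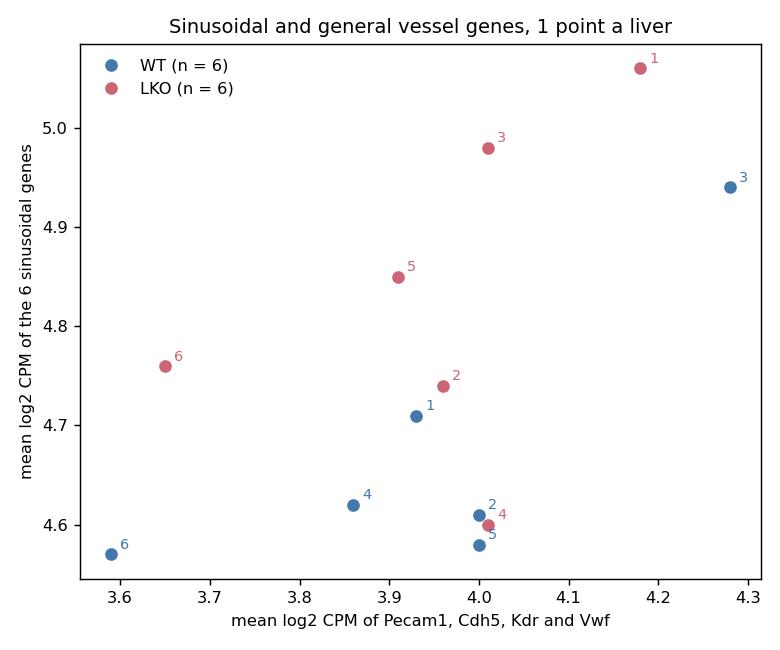
Mean log2 CPM of the 6 sinusoidal genes (vertical axis) against that of *Pecam1*, *Cdh5*, *Kdr* and *Vwf* (horizontal axis), with 1 point a liver (6 WT, 6 LKO) and the replicate number beside it. The vertical values run from 4.57 to 4.94 in WT and from 4.60 to 5.06 in LKO livers and the horizontal ones from 3.59 to 4.28 and from 3.65 to 4.18, so the groups overlap on both axes.

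The members varied together from liver to liver. WT replicate 3 had the highest WT value of 9 of the 10 genes, the exception being *Lyve1*, and WT replicate 6 had the lowest of 5. Among LKO livers, replicate 1 was highest for 5 genes and replicate 3 for 4, and replicate 6 was lowest for 5. With the group means removed, the median correlation over the 12 livers was 0.46 for the 15 pairs of sinusoidal genes (range -0.27 to 0.89), 0.69 for the 6 pairs of general vessel genes (range 0.40 to 0.86) and 0.48 for the 24 mixed pairs (range -0.27 to 0.87). These correlations describe the same 12 libraries, which share normalization and tissue makeup, so the pairs are not independent.

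The closest pair was *Oit3* and *Dnase1l3* at 0.89, followed by *Clec4g* and *Pecam1* at 0.87. *Pecam1* with *Cdh5*, *Pecam1* with *Kdr* and *Cdh5* with *Kdr* had 0.86, 0.86 and 0.85. *Lyve1* was farthest from *Stab2* and *Vwf*, at -0.27 with each, and had 0.41 to 0.50 with the other members. A highest value of this size was not particular to *Lyve1*. It was 0.52 for *Stab2*, with *Stab1*, and 0.52 for *Vwf*, with *Kdr*.

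Outside the set, the 10 genes whose residuals were most like the mean of the 6 sinusoidal genes, of 12765 candidates with a mean of at least 1 CPM, were *Atp2b4* (0.91), *Vsig2* (0.86), *Pygb* (0.84), *Hmgn1* (0.84), *Arhgap27* (0.83), *Lsp1* (0.83), *S100a11* (0.83), *Srp54c* (0.81), *Ucp2* (0.81) and *Eng* (0.81). The values are Pearson's r over the 12 livers. They are the highest of 12765, and with so few livers some unrelated genes can reach high values. Whether these 10 genes track sinusoidal endothelium was not tested. Only *Eng*, endoglin, a TGF-beta co-receptor of endothelium, belonged to a vessel list used here. None of these 10 genes passed the threshold between genotypes.

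Other genes known from sinusoidal endothelium had mostly small differences. Of 20 genes, 16 were above 0 and 4 below, 0 passed, and the median log2 fold change was 0.08. Among them were the immune complex receptor *Fcgr2b* (0.01), the mannose receptor *Mrc1* (0.14), the receptor *Gpr182* (0.05) and the transcription factors *Gata4* (0.07) and *Maf* (0.05), which help to set sinusoidal identity. The lowest was *Cd4* at -0.36, with at most 39 reads in a liver.

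The highest was *Clec1b* (CLEC-2, a C-type lectin receptor for podoplanin best known from platelets and also found in sinusoidal endothelium and Kupffer cells; chr6:129397297-129409335). The lowest, median and highest value was 3.15, 4.22 and 5.13 CPM in WT livers and 5.41, 6.36 and 9.35 CPM in LKO livers. All 6 LKO livers were above the highest WT liver, and 1.30% of all genes had groups that did not overlap in either direction. The mean was 4.18 ± 0.846 CPM in WT and 6.91 ± 1.59 CPM in LKO livers (SD, n = 6 each), a fold change of 1.65 (log2 0.72, SE 0.167, 95% interval 0.37 to 1.08, adjusted p = 0.0798 by edgeR). It passed with DESeq2 (adjusted p = 0.00583), which called 2.31% of its genes. In edgeR it passed with the replicate number as a block (adjusted p = 0.0437, with 0.554% of all genes called). *Clec9a* on the same strand covers 3.61% of its exon bases.

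Angiocrine signals, by which endothelium acts on hepatocytes, had 7 of 10 genes above 0, none past the threshold and 0.08 as the median log2 fold change. The Wnt ligands of the central vein had few reads. *Wnt2* had 0.08 (SE 0.195, 21 to 58 reads per liver) and *Wnt9b* -0.14 (SE 0.280, 12 to 40 reads per liver). *Bmp2*, which drives hepcidin in hepatocytes, had -0.05, and the Notch ligand *Dll4* had 0.30. *Rspo3*, which amplifies Wnt signals, had means of 4.41 ± 0.463 CPM in WT and 5.27 ± 0.391 CPM in LKO livers (SD, n = 6 each), which is a log2 fold change of 0.25 (SE 0.101, adjusted p = 0.331 by edgeR). *Gm48159* on the opposite strand covers 13.1% of the exon bases of *Rspo3*.

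The pan-endothelial list had 19 of 28 genes above 0, none past the threshold and a median of 0.10. The angiopoietin receptor *Tek* had 0.02, its partner *Tie1* 0.11, the VEGF receptor *Flt1* -0.04 and *Eng* 0.10. At the ends lay *Icam2* at 0.46 and *Cav1*, caveolin-1, at -0.44. *Cav1* had 4, 5.3 and 5.81 CPM as the lowest, median and highest WT value and 2.97, 3.93 and 4.5 CPM in LKO livers, and the groups overlapped. Its means were 5.14 ± 0.666 and 3.8 ± 0.622 CPM (SD, n = 6 each; SE of the log2 fold change 0.133, adjusted p = 0.191 by edgeR).

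Genes of large vessels and continuous endothelium, which capillarized sinusoids can gain, had 11 of 17 tested members above 0 and 0.15 as the median log2 fold change. Of the classical ones, *Cd34* had -0.05 (SE 0.234, adjusted p = 0.96 by edgeR) on only 13 to 38 reads per liver. *Plvap*, which forms the diaphragms of fenestrae and caveolae, had 0.25 (SE 0.119, adjusted p = 0.442 by edgeR). The lowest was *Fbln2*, a matrix protein, at -0.21. Leukocyte adhesion molecules, picked out after their values were seen, had 0.54 for *Icam1* (adjusted p = 0.232 by edgeR), 0.44 for *Vcam1* (adjusted p = 0.368 by edgeR) and -0.20 for *Selp*, P-selectin (adjusted p = 0.704 by edgeR). The single gene of the list that passed was *Cd9*, beside 0.274% of all genes that passed as higher in LKO livers.

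*Cd9* encodes a tetraspanin found in endothelium, platelets and many other cells (chr6:125460266-125494791). It had 12.9, 18.4 and 21.2 CPM as the lowest, median and highest WT value and 25.8, 29.3 and 34.9 CPM in LKO livers. Every LKO liver was above every WT liver, beside 1.30% of all genes with separate groups in either direction. *Cd9* rose from 18 ± 2.98 to 29.3 ± 3.15 CPM (SD, n = 6 each), a fold change of 1.63 (log2 0.71, SE 0.11, 95% interval 0.47 to 0.94, adjusted p = 0.00812 by edgeR). *Gm26728* on the opposite strand covers 10.7% of its exon bases.

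VEGF, angiopoietin and Notch signals had 11 of 14 tested genes above 0 and a median of 0.07. *Vegfa*, the ligand of *Kdr* made in liver chiefly by hepatocytes, had 197 ± 17 CPM in WT and 200 ± 17.9 CPM in LKO livers (SD, n = 6 each), which is a log2 fold change of 0.02 (adjusted p = 0.95 by edgeR). At the low end lay *Notch1* at -0.18. The single gene that passed was *Vegfb*, a VEGF that binds *Flt1* and not *Kdr* (chr19:6982473-6987651). Over all genes, 0.274% passed as higher in LKO livers.

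*Vegfb* had 9.77, 10.9 and 12 CPM as the lowest, median and highest WT value and 14.1, 16.3 and 18.4 CPM in LKO livers. The groups did not overlap, which held for 1.30% of all genes in either direction. *Vegfb* rose from 10.9 ± 0.906 to 16.2 ± 1.37 CPM (SD, n = 6 each), a fold change of 1.48 (log2 0.57, SE 0.080, 95% interval 0.40 to 0.74, adjusted p = 0.00483 by edgeR). *Vegfb* and *Cd9* passed in all 21 alternative settings. Both are expressed by cells other than endothelium, and which cells carried the difference was not tested.

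**Figure D4:**
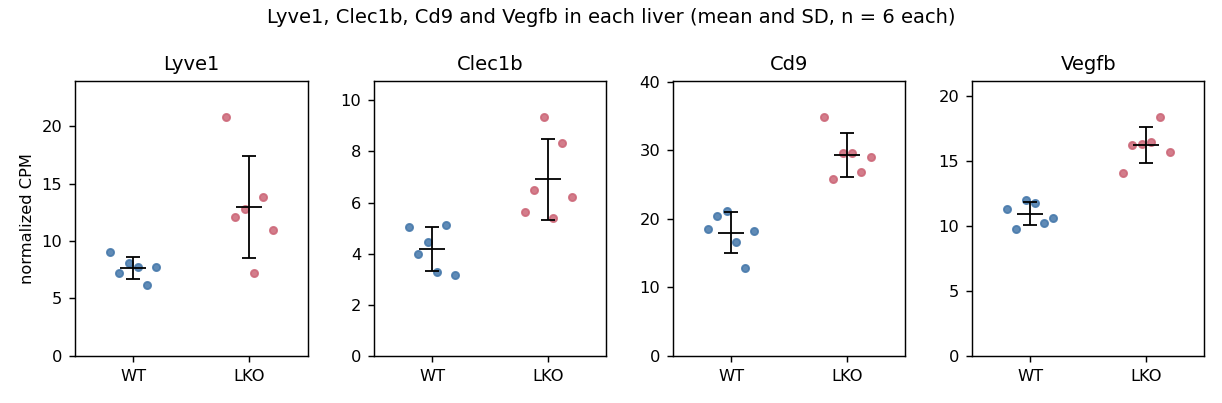
Normalized CPM (vertical axes, each from 0) of *Lyve1*, *Clec1b*, *Cd9* and *Vegfb* in each of 6 WT and 6 LKO livers; points are livers and bars give the mean and SD. The groups are separate for *Clec1b*, *Cd9* and *Vegfb* and overlap for *Lyve1*; *Cd9* and *Vegfb* passed the threshold in edgeR.

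*Lyve1* is also a lymphatic gene, and *Clec1b* and *Lyve1* can also be found in macrophages, so markers of other cells were set beside them. Of the lymphatic markers, *Ccl21a*, which has near-identical gene copies, had 0 reads in all 12 livers, *Mmrn1* 0 to 27 and *Pdpn* 2 to 17 reads per liver, with neither of the latter past the threshold. *Prox1*, which hepatocytes also express, had -0.26 and *Reln* 0.16 on the log2 scale. The WT mean of *Reln* was 40.7 CPM, beside 0.551 CPM for *Mmrn1* and 0.514 CPM for *Pdpn*. Which cells its reads came from was not tested. The lymphatic list had 1 of 4 tested genes above 0 and none called, and the part of lymphatic vessels in the value of *Lyve1* was not tested.

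Markers of Kupffer cells, the resident macrophages of the sinusoid, were above 0 for 12 of 12 genes, and their median log2 fold change was 0.38 (range 0.28 for *Cd163* to 0.52 for *Cd68*). None passed the adjusted threshold, and 10 of the 12 had an unadjusted p under 0.05 in the higher direction, which 6.33% of all genes had. *Clec4f*, a lectin that is restricted to Kupffer cells in mice, had 45 ± 4.32 CPM in WT and 59.1 ± 9.22 CPM in LKO livers (SD, n = 6 each; log2 fold change 0.39, SE 0.10, adjusted p = 0.114 by edgeR). The summed CPM of the 12 markers was 151, 208, 186, 184, 198 and 195 in the WT livers, replicates 1 to 6, and 247, 259, 318, 240, 223 and 186 in the LKO livers in the same order. *Lyve1* was highest in LKO replicate 1 and the Kupffer sum in LKO replicate 3. LKO replicate 4 had a Kupffer sum above every WT liver and a *Lyve1* value within the WT range. *Clec1b* had 5.63, 6.5, 9.35, 5.41, 8.34 and 6.22 CPM in LKO replicates 1 to 6. Its highest value was in LKO replicate 3, the liver with the highest Kupffer sum, and its next highest in LKO replicate 5, where that sum was 223. In WT replicates 1 to 6 *Clec1b* had 5.04, 4, 4.45, 3.3, 5.13 and 3.15 CPM, and WT replicate 1 had the lowest Kupffer sum, 151. The part of Kupffer cells in the values of *Lyve1* and *Clec1b* was not tested.

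Stellate cell markers had 9 of 10 genes above 0, none called, a median of 0.21 and a summed CPM of 178 to 268 in WT and 220 to 312 in LKO livers, and the highest was *Lrat*, which esterifies retinol, at 0.47 (adjusted p = 0.226 by edgeR). T and B cell markers had 6 of 6 tested genes above 0, none called and a median of 0.66. *Ptprc*, the common leukocyte antigen CD45, had 0.46 (adjusted p = 0.112 by edgeR). The others were near the floor, with at most 13 reads in a liver, and *Cd3e* had 0.04. The summed CPM of 5.39 to 7.3 in WT and 7.19 to 10.3 in LKO livers was mostly *Ptprc*. Its mean was 5.1 CPM beside a mean sum of 6.25 in WT, and 7.01 beside 8.86 in LKO livers. Hepatocyte markers had 10 of 12 genes below 0, none called and a median of -0.15, from *Cyp2f2* at -0.41 to *Ttr* at 0.09, with *Alb* at -0.18 and a summed CPM of 110000 to 133000 in WT and 102000 to 112000 in LKO livers. Cholangiocyte markers (3 of 5 above 0, median 0.25, *Sox9* -0.62 to *Epcam* 0.51), red blood cell markers (4 of 5, median 0.19, *Alas2* -0.24 to *Hbb-bt* 0.83) and markers of smooth muscle and pericytes (2 of 4, median -0.06, *Myh11* -0.31 to *Tagln* 0.35) had no gene past the threshold. Beside these lists the median of the 6 sinusoidal genes was 0.07, and the part of the liver's cell makeup in any of these values was not tested.

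**Figure D5:**
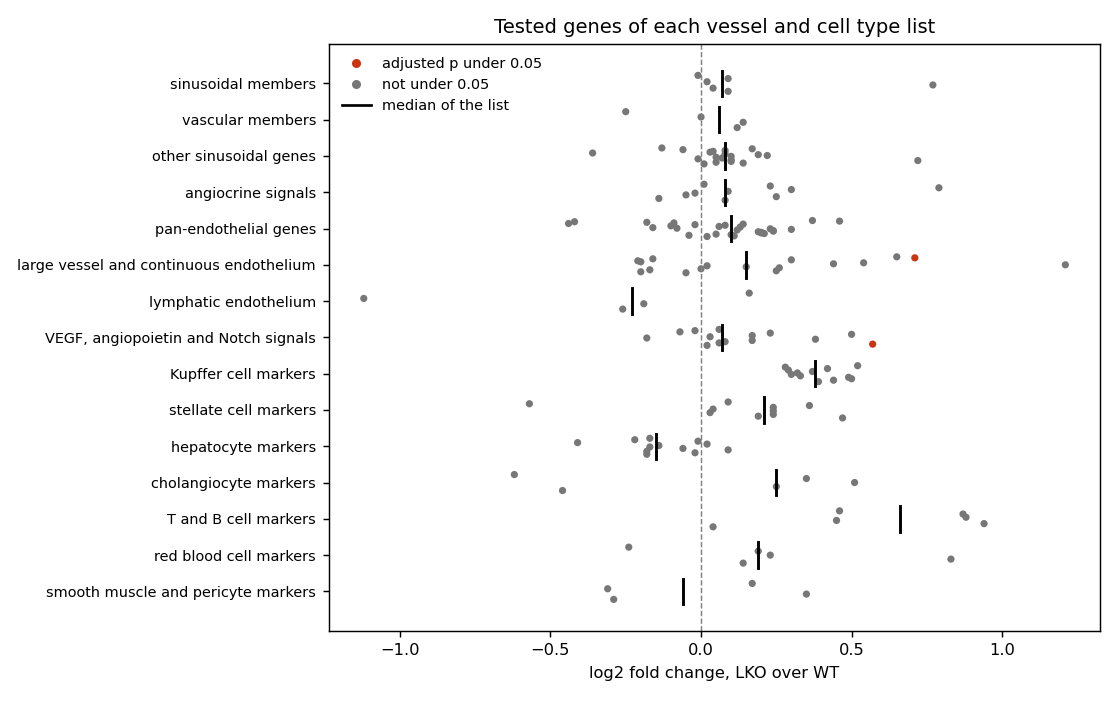
Log2 fold change of LKO over WT livers (horizontal axis) for each tested gene of the 15 vessel and cell type lists (rows); points are genes, red points have an adjusted p under 0.05 by edgeR and black bars give the list medians. The red points are *Cd9* and *Vegfb*, and the Kupffer cell markers run from 0.28 to 0.52.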

How the data were processed

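RNA of whole liver was made into mRNA libraries by the authors with a KAPA mRNA HyperPrep kit and sequenced on a HiSeq4000. Per the labels and the paper's methods, reads were checked with FastQC 0.11.15, trimmed with Trimmomatic 0.36, aligned with HISAT2 2.1.0 to the mouse genome (GRCm38.p6) and assigned to Ensembl genes with HTSeq 0.6.1. What the authors deposited is the raw count per gene in each liver, with no scaling and no filter. The strand setting and overlap mode of the counting are not given in the sources used here.

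Groups came from the labels (6 WT, 6 LKO). The methods name the third exon in one place and the second in another as the floxed exon. Of 54232 identifiers, 54165 had a symbol in GENCODE M21 (GRCm38), which also gave positions and exon lengths. A gene was tested when 6 or more livers had over 2 reads, which left 17509 genes. The counts were scaled by TMM and genotypes compared in edgeR 4.0.16 (R 4.3.3; quasi-likelihood, two-sided, no covariate), with p-values adjusted by Benjamini-Hochberg across the tested genes. Every "adjusted p by edgeR" in the text is from this test, and p-values measure the spread between these mice. SE and 95% intervals come from each gene's log2 fold change and F value. For log2 CPM the prior count was 0.5. Means, SD and ranges are of normalized CPM. Read counts carry no molecular identifiers. The main edgeR test was first tried on simulated counts, and the alternative tests were not.

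The 10 members and the gene lists were chosen with earlier results of these data known, so no p-value was adjusted over a list or computed for a list. Named from each list were genes with an adjusted p under 0.05, the highest and lowest log2 fold change among genes with a mean of at least 1 CPM, and a set of key genes; *Icam1*, *Vcam1*, *Selp*, *Mmrn1* and *Pdpn* were added after their values were seen. A gene of this rule is not reported here. The list symbol *Figf*, an older name of *Vegfd*, was dropped. Promoters were read from the RefSeq table (GRCm38.p6), with 4 of 10 members matched.

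Alternatives were RLE and upper-quartile scaling, scaling without the 20 most abundant genes, no filter, at least 10 reads in every liver, filterByExpr, limma 3.58.1 voom (the study's test), DESeq2 1.42.0, a block for the replicate number, and leaving out each liver in turn.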

Additional observations from a re-analysis of the deposited data

Results flagged for a closer look

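In 26 groups of 6 livers (13 genes in WT and in LKO: the 10 endothelial genes with *Clec1b*, *Cd9* and *Vegfb*), the gap between an end value and its nearest neighbour was divided by the range and set against Dixon's 95% critical value for 6 samples. It was exceeded in 2 groups, and chance alone gives about 1.3. Both were the same liver, WT replicate 3. For *Stab1* this liver had 61.4 CPM and the next WT liver 49.8 CPM, a ratio of gap to range of 0.691. For *Dnase1l3* it had 46.1 CPM and the next WT liver 35.5 CPM, a ratio of 0.692. Without WT replicate 3 the log2 fold change of *Stab1* was 0.17 and that of *Dnase1l3* was 0.09, and neither passed in edgeR.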

How the results depend on the processing

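Over 21 alternative settings each, *Stab1*, *Stab2*, *Oit3*, *Pecam1*, *Cdh5* and *Vwf* kept their direction and none passed the threshold. *Kdr* ran from -0.05 to 0.06. The sign of values near 0 did not hold: *Dnase1l3* (-0.01) was 0.01 with upper-quartile scaling and 0.01 with no filter, and between -0.06 and 0.09 with single livers left out (0.09 without WT replicate 3, 0.04, 0.01 and 0.02 without LKO replicates 2, 4 and 6), and *Clec4g* (0.02) was between -0.03 and 0.07 (-0.03, -0.02 and -0.02 without WT replicates 4, 5 and 6 and -0.01 without LKO replicate 1). *Lyve1* ran from 0.58 to 0.89 with single livers left out (edgeR, adjusted p from 0.0248 to 0.23). DESeq2 gave 0.76 for *Lyve1* and 0.72 for *Clec1b*, both past its threshold, which 2.31% of its genes passed.

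The number of members called was 1 with DESeq2 and 0 to 1 with single livers left out, *Lyve1* in each case. The number of genes called, 75, was 114 with no filter, 350 with DESeq2, and from 38 (without WT replicate 5) to 132 (without WT replicate 3) with single livers left out. Of the calls, 64% were higher in LKO livers in edgeR and 51.1% in DESeq2. The difference between sinusoidal and general vessel genes, 0.15, was 0.04 without *Lyve1* and -0.03 without *Lyve1* and *Vwf*, alternatives chosen after seeing the data. It ran from 0.10 to 0.21 with single livers left out. The causes were not tested.

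With the replicate number as a replicate block, 97 genes and 0 members were called and *Clec1b* had 0.72. The numbers belong to different mice with no stated pairing, and same-numbered livers correlated at -0.06 to 0.14 after removal of group means, over 0.1 in 4 of 6 pairs, so the numbers were not taken as pairs. As a hint from the data alone, 5 of 12 livers were nearest to their own number, where 2 are expected with no pairing. *Vwf* (61 reads at the lowest) and *Lyve1* (115) had the fewest reads of the members and the largest SE, 0.186 and 0.191. The parts of depth and of spread between livers in these SE were not tested.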
